A study of Mus musculus with 4 samples.

Results

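The genes described here encode cyclic AMP-dependent protein kinase (protein kinase A, PKA), the transcription factor CREB with 1 of its coactivators, and calcium/calmodulin-dependent protein kinase II (CaMKII), as transcribed in HT-22 cells, an immortalized line made from mouse hippocampal neurons. The 10 genes were fixed by name: Prkaca, Prkacb, Prkar1a, Prkar2a, Prkar2b, Creb1, Crtc2, Camk2b, Camk2d and Camk2g. All 10 were present among the 11502 gene symbols of the deposited table and, with 41 of its 25889 transcripts, all 10 were among the 10604 genes compared.

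There were 4 libraries. Ctrl cells carried a negative control lentivirus and were labelled wild type, and PGC-1α cells carried a lentivirus that overexpresses PGC-1α, a coactivator of mitochondrial gene expression. Both kinds of cells were also taken after oxygen and glucose deprivation (OGD), for 2 h in medium free of serum and glucose, in a hypoxia chamber of nitrogen and carbon dioxide, with 24 h back in normal medium before RNA was taken (Ctrl+OGD and PGC-1α+OGD). The transduced cells were used as a drug-selected population, and the viral promoter is not given in the sources used here. Selection came before OGD, so PGC-1α and a lasting difference between the selected cultures cannot be told apart, even where both pairs are alike. Each group was 1 library, so no difference below has a replicate check, no p value was computed, and neighbouring values in an order of levels cannot be told apart by any spread. Values are FPKM, fragments scaled to transcript length and library size, and so a level per length. A gene's level is the sum over its deposited transcripts, and log2 fold changes are on the log2(FPKM + 1) scale, which understates the change of low genes. A value of 0 means that a transcript was listed at 0. Where 4 values follow each other, they stand for Ctrl, then PGC-1α, then control cells and PGC-1α cells after OGD. The words higher and lower, used of a count, stand for a fold of at least 1.5 on that scale.

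Ppargc1a, which encodes PGC-1α, was at 0.900 FPKM in Ctrl, 35.1 in PGC-1α and, with OGD, 0.103 in control and 8.41 in PGC-1α cells, so both libraries of the overexpressing cells were the high ones. Of 16 neuronal marker genes 3 were in the table here (Syp, Eno2 and Dlg4), with a summed level of 2.12 to 5.17 FPKM, and Rbfox3, Map2, Tubb3, Snap25 and Syt1 were not among them. The summed levels were 13.6 to 24.0 FPKM for 3 of 6 astrocyte markers, 3.26 to 4.76 for 1 of 6 oligodendrocyte markers (Mbp) and 0.740 to 2.66 for 2 of 5 microglial markers. For 5 of 6 fibroblast markers, with Col1a1 and Col1a2 among them, the sum was 452 to 547 FPKM. The labelled neuronal type was therefore not borne out by its defining markers in this table. The part of these marker levels in the results below was not tested, and fewer cells of a kind and less RNA per cell cannot be told apart in such samples.

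PKA is held inactive as a complex of catalytic subunits with a dimer of regulatory subunits. Cyclic AMP binds the regulatory subunits and frees the catalytic ones, which phosphorylate CREB among many targets. Phosphorylated CREB activates genes whose promoters hold the cyclic AMP response element, with the help of coactivators of the CRTC family, and Ppargc1a itself is a well known CREB target in the liver. CaMKII is a multimeric kinase activated by calcium-bound calmodulin, abundant at the synapses of the hippocampus, and its genes are spliced into many forms that differ in the linker between the kinase domain and the association domain.

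Several of these genes differed between the libraries in the transcript that carried the signal. The sequences below show the coding bases by which those transcripts differ, as read from the GENCODE M21 transcripts on GRCm38. Capitals mark coding bases that the named partner transcript lacks, and the lower case letters are the coding bases next to them that both share.

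In Prkacb, the first coding exon of Prkacb-201 (398 residues) and that of Prkacb-202 (351 residues) lie apart on the minus strand of chromosome 3, at chr3:146781147-146781333 and chr3:146812638-146812683, and both run into the same second exon:
Prkacb-201: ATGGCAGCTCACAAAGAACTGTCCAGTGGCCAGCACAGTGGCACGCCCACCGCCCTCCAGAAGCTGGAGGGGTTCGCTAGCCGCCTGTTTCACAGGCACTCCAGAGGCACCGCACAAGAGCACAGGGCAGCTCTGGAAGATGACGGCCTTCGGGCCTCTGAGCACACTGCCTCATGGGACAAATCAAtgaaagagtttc
Prkacb-202: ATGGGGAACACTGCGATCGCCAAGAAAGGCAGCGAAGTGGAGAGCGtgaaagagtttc

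In Creb1, transcript Creb1-209 (341 residues) has a 42-base coding exon at chr1:64559727-64559768 (plus strand) that Creb1-202 (327 residues) skips. This exon separates the α form of CREB from the Δ form:
Creb1-209: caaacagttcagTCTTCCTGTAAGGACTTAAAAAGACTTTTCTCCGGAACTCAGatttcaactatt

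In Camk2d, the 33-base exon of Camk2d-205 at chr3:126802937-126802969 (plus strand) carries the nuclear localization signal of the well known δB form. Camk2d-226 lacks it and has other last coding bases, 64 of them, at chr3:126841485-126841548:
Camk2d-205: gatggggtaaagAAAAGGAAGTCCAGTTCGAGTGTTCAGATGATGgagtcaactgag
Camk2d-226: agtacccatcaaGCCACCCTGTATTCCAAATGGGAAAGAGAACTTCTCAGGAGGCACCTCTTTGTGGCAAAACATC

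Camk2g-201 holds a like 33-base exon at chr14:20747819-20747851 (minus strand) that Camk2g-202 lacks, and 26 of the 33 bases (78.8%) are those of Camk2d-205. Camk2g-202 has in turn a 69-base exon at chr14:20745792-20745860 that Camk2g-203 lacks:
Camk2g-201: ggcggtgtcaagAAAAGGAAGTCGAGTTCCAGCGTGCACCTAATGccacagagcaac
Camk2g-202: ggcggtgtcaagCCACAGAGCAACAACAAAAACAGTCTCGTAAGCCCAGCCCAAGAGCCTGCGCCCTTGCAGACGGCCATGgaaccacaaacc

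In Camk2b (minus strand of chromosome 11), the short form Camk2b-201 lacks a 33-base exon at chr11:5989936-5989968 and a 45-base exon at chr11:5981070-5981114 of Camk2b-208:
Camk2b-208, first: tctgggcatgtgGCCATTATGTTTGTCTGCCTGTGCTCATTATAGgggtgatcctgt
Camk2b-208, second: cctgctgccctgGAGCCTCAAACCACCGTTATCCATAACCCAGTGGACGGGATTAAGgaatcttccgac

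The PKA catalytic subunits varied little at the level of the gene. Prkaca (ENSMUSG00000005469, chr8:83972993-83996443, plus strand), which encodes the α catalytic subunit found in most tissues, was at 33.0 FPKM in Ctrl against 38.8 in PGC-1α without OGD, and 36.1 in control against 34.4 in PGC-1α cells with OGD. Its highest level was 1.18 times its lowest, and the log2 fold change with PGC-1α was 0.23 without and -0.07 with OGD. Transcript Prkaca-201 carried between 98.0% and 99.3% of it in every library. Prkacb (ENSMUSG00000005034, chr3:146729574-146812990, minus strand), which encodes the β catalytic subunit, was at 30.1 FPKM in Ctrl and 29.5 in PGC-1α, and after OGD at 22.4 in control and 26.6 in PGC-1α cells. The Ctrl+OGD library was the lowest, with a log2 fold change of -0.41 against Ctrl.

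Prkacb differed more in its transcripts than in its sum. Prkacb-201, the form with the longer N-terminal end printed above, was at 21.9 FPKM in Ctrl, 21.7 in PGC-1α and, with OGD, 5.00 in control and 19.3 in PGC-1α cells. Prkacb-202 was at 7.19, 6.73, 17.4 and 6.11 FPKM in the same order of libraries. The Ctrl+OGD library thus stood alone: Prkacb-202 made up 77.6% of the gene there and between 22.8% and 23.9% in the other 3 libraries. Both transcripts have exonic bases of their own in the annotation, 270 in Prkacb-201 and 616 in Prkacb-202. With 1 library on each side, a difference between cultures and a difference between conditions cannot be told apart here.

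Of the regulatory subunits, Prkar1a was the steadiest of the 10 genes. In the plain sum of transcripts, Prkar2a and Prkar2b stood in opposite directions. Prkar1a (ENSMUSG00000020612, chr11:109649405-109669656, plus strand), which encodes the type I regulatory subunit α and is essential in the mouse embryo, was at 86.8 FPKM in Ctrl against 95.4 in PGC-1α without OGD, and 87.2 in control against 86.8 in PGC-1α cells with OGD. Its highest level was 1.10 times its lowest. Prkar2a (ENSMUSG00000032601, chr9:108689314-108750436, plus strand), a type II subunit that A-kinase anchoring proteins tether, was at 55.7 FPKM in Ctrl and between 69.9 and 76.8 in the other 3 libraries. Its log2 fold change with PGC-1α was 0.44 without OGD, where 8.76% of all genes were as high or higher, and 0.14 with OGD. Prkar2b (ENSMUSG00000002997, chr12:31958476-32061296, minus strand), the type II subunit known from brain and fat, was at 132 FPKM in Ctrl and 103 in PGC-1α, and after OGD at 119 in control and 94.6 in PGC-1α cells.

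Prkar2b was lower in the PGC-1α library of each pair, at 0.782 of Ctrl and 0.796 of Ctrl+OGD (log2 fold changes -0.35 and -0.33), short of 1.5-fold in both. These pairs share no library, but PGC-1α and a lasting difference between the selected cultures cannot be told apart in them. In these plain sums, the ratio of Prkar2b to Prkar2a was 2.37 in Ctrl against 1.36 in PGC-1α, and with OGD 1.70 in control against 1.23 in PGC-1α cells. It was thus highest in Ctrl and lowest with both PGC-1α and OGD. The type II subunits together were at 188, 179, 189 and 171 FPKM in that order. Summed regulatory subunits were at 275, 275, 276 and 258 FPKM and summed catalytic subunits at 63.1, 68.3, 58.5 and 61.0. The ratio of regulatory to catalytic transcript levels stayed between 4.02 and 4.72.

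The transcripts of Prkar2b differed far more than their sum, and in the same way in both PGC-1α libraries. Prkar2b-201, with 256 bases after its coding sequence, was at 124 FPKM in Ctrl, 48.4 in PGC-1α and, with OGD, 105 in control and 48.6 in PGC-1α cells. Prkar2b-202, which encodes the same 416 residues but has 1916 bases after the coding sequence, was at 7.71, 38.1, 13.1 and 38.2 FPKM. Prkar2b-203, which starts at another first exon and encodes 256 residues, was at 0.689, 17.0, 0.702 and 7.71 FPKM. In share, Prkar2b-201 held 93.6% of the gene in Ctrl and 88.4% in Ctrl+OGD, against 46.8% in PGC-1α and 51.4% in PGC-1α+OGD. The levels of each of these 3 transcripts in the PGC-1α libraries lay outside those in the control libraries.

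The direction of the Prkar2b sum depended on this exchange. When each transcript was weighted by its length, so that the sum follows fragments rather than molecules, the log2 fold change with PGC-1α was 0.16 without and 0.08 with OGD, against -0.35 and -0.33 for the plain sum. Weighted so, Prkar2a was at 0.38 without and 0.08 with OGD, in the same direction as Prkar2b. Prkar2b-201 has 1 splice junction and no base of its own in the annotation, so how fragments were divided among the transcripts bears on these values.

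Prkar1a was carried mostly by Prkar1a-201, at 66.5, 64.7, 72.8 and 63.6 FPKM in that order of libraries. Prkar1a-203, which encodes the same 381 residues from another first exon and was picked out after its values were seen, was at 18.6, 29.9, 13.9 and 22.0 FPKM, so both PGC-1α libraries were above both controls. For Prkar2a, the leading Prkar2a-201 was at 36.7, 47.3, 48.4 and 50.8 FPKM, with Ctrl the lowest as for the gene.

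**Figure D1:**
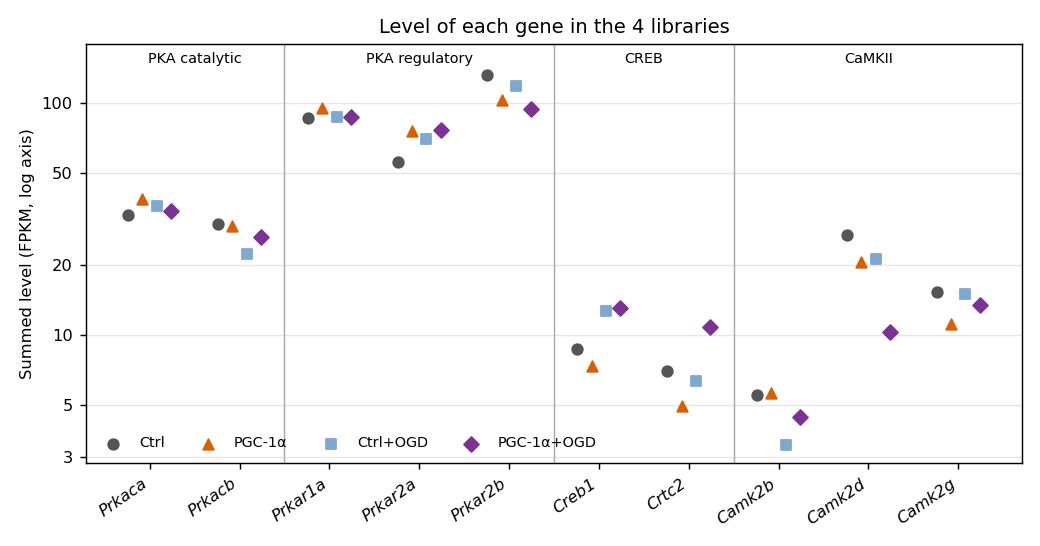
Summed level of each of the 10 genes (FPKM, log axis) in the 4 libraries, ordered by role, with 1 symbol per library and no error bars because each group was 1 library. Prkar1a stayed between 86.8 and 95.4 FPKM, while Camk2d in PGC-1α+OGD (10.3 FPKM) and Crtc2 in PGC-1α+OGD (10.9 FPKM) lay apart from the other libraries of those genes.

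The summed level of Creb1 was higher in both OGD libraries, and that of Crtc2 stood apart in 1 library. Creb1 (ENSMUSG00000025958, chr1:64532645-64604548, plus strand), which encodes the transcription factor CREB, was at 8.72 FPKM in Ctrl against 7.40 in PGC-1α without OGD, and 12.8 in control against 13.1 in PGC-1α cells with OGD. Both OGD libraries were above both others, with a ratio of 1.46 in control cells (log2 fold change 0.50, short of 1.5-fold) and of 1.77 in PGC-1α cells (0.75). Those comparisons share no library. In PGC-1α cells 2.39% of all genes were as high or higher. With PGC-1α the log2 fold change of Creb1 was -0.21 without and 0.04 with OGD.

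Crtc2 (ENSMUSG00000027936, chr3:90254163-90264125, plus strand), which encodes a CRTC coactivator that moves to the nucleus when dephosphorylated, has a single transcript in the table and was at 7.02 FPKM in Ctrl and 4.97 in PGC-1α, and after OGD at 6.34 in control and 10.9 in PGC-1α cells. The PGC-1α library was the lowest and the PGC-1α+OGD library the highest, with a ratio of 2.19 between them. With PGC-1α, Crtc2 was at 0.708 of its control without OGD (log2 fold change -0.43) and at 1.72 of its control with OGD (0.70), where 2.24% of all genes were as high or higher. The difference between these log2 fold changes was 1.12, which was not tested.

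The Creb1 transcripts differed in form and in length. Creb1-202, the Δ form with 7173 bases after the coding sequence, was at 7.06 FPKM in Ctrl, 1.88 in PGC-1α and, with OGD, 4.61 in control and 3.35 in PGC-1α cells. Creb1-209, the α form with the 42-base exon and 102 bases after the coding sequence, was at 0.650, 2.86, 7.61 and 8.74 FPKM. Thus Ctrl was the only library led by Creb1-202, which held 81.0% of the gene there, and Creb1-209 held 38.7% in PGC-1α cells without OGD, 59.7% in control cells after OGD and 66.6% in PGC-1α cells after OGD. The share of Creb1-209 was higher with OGD in both kinds of cells. Creb1-209 has 0 exonic bases and 0 junctions of its own in the annotation. Its level, and with it the summed level of Creb1, thus rests on how the fragments of shared exons were divided. Creb1-201 also holds the 42-base exon, and the deposited transcripts with this exon summed to 1.15, 2.86, 7.75 and 8.74 FPKM.

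Because Creb1-202 is 8364 bases long and Creb1-209 is 1260, the weight given to length changed the gene's values. In the length-weighted sum the log2 fold change of Creb1 was -0.31 for Ctrl+OGD against Ctrl, opposite in sign to the plain sum, and 0.65 for PGC-1α+OGD against PGC-1α. With PGC-1α it was -1.20 without OGD and -0.25 with OGD.

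The summed CaMKII level was lowest in PGC-1α+OGD, and Camk2d was the only CaMKII gene that was itself lowest there. The sum of the 3 genes was 48.0 FPKM in Ctrl against 37.5 in PGC-1α without OGD, and 39.7 in control against 28.2 in PGC-1α cells with OGD, and with Camk2a, which encodes the forebrain α subunit, it was 55.3, 42.5, 44.1 and 32.8. Camk2d (ENSMUSG00000053819, chr3:126596302-126846326, plus strand), which encodes the δ subunit known from heart as well as brain, was at 27.1, 20.7, 21.4 and 10.3 FPKM. In PGC-1α+OGD it was at 0.482 of Ctrl+OGD (log2 fold change -0.99) and at 0.497 of PGC-1α (-0.94). As low or lower were 1.10% of all genes in the former comparison and 1.90% in the latter, and these comparisons share the PGC-1α+OGD library. Without OGD the log2 fold change with PGC-1α was -0.37. Camk2d made up 53.8% to 56.4% of the 3 genes in the other 3 libraries and 36.5% in PGC-1α+OGD. Of the other CaMKII genes, Camk2g was lowest in PGC-1α (11.2 FPKM), and Camk2b (3.37) and Camk2a (4.40) were lowest in Ctrl+OGD.

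Camk2g (ENSMUSG00000021820, chr14:20734875-20794088, minus strand), which encodes the widely expressed γ subunit, was at 15.4 FPKM in Ctrl and 11.2 in PGC-1α, and after OGD at 15.0 in control and 13.5 in PGC-1α cells. Both PGC-1α libraries were below both controls, with log2 fold changes of -0.43 and -0.14. The former passed 1.5-fold in the length-weighted sum (-0.59), with complete coding sequences only (-0.66) and by the highest transcript (-2.75). Its log2 fold change for PGC-1α+OGD against PGC-1α was 0.25 and passed 1.5-fold with complete coding sequences only (0.62) and by the highest transcript (2.52). Camk2b (ENSMUSG00000057897, chr11:5969644-6066362, minus strand), which encodes the actin-binding β subunit of neurons, had the lowest mean of the 10 genes over the 4 libraries, at 5.52, 5.64, 3.37 and 4.45 FPKM, though Crtc2 was lower in the PGC-1α library (4.97). Its lowest library was Ctrl+OGD, with a log2 fold change of -0.58 against Ctrl that was just short of 1.5-fold and passed it at smaller pseudocounts (-0.69 at 0.1).

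The leading Camk2d transcript differed with OGD in both kinds of cells, and the OGD libraries also differed from each other. Camk2d-205, with the nuclear localization exon, was at 13.3 FPKM in Ctrl, 9.48 in PGC-1α and, with OGD, 0.203 in control and 1.95 in PGC-1α cells. Camk2d-226 was at 1.91, 1.63, 13.6 and 4.04 FPKM, and Camk2d-206 (512 residues), picked out after its values were seen, at 6.93, 4.94, 0.0889 and 0.139. Camk2d-205 therefore led in both libraries without OGD, and Camk2d-226 led in both with OGD, at 63.5% of the gene in control and 39.2% in PGC-1α cells. Camk2d-201, annotated with a partial coding sequence of 160 residues, was at 0.486, 0.371, 5.60 and 0 FPKM. It starts inside the nuclear localization exon and holds 30 of its 33 bases, so the deposited transcripts with this exon summed to 13.8, 9.85, 5.80 and 1.95 FPKM, and the exon was not near 0 in Ctrl+OGD. Camk2d-228 (533 residues) was at 0.821, 0.654, 0 and 2.18 FPKM. Camk2d-201 and Camk2d-228 have 0 exonic bases and 0 junctions of their own in the annotation. Camk2d-205 has 3 such bases and 2 junctions, and Camk2d-226 has 31 bases and 0 junctions. How the fragments of shared exons were divided thus bears on all these levels. Taken alone, Camk2d-205, which has the highest mean of the gene's transcripts, had a log2 fold change of 1.29 for PGC-1α+OGD against Ctrl+OGD, opposite in sign to the gene. Without transcripts of partial coding sequence, the log2 fold change of Camk2d was -0.61 for PGC-1α+OGD against Ctrl+OGD and -0.74 for Ctrl+OGD against Ctrl. That alternative was chosen after the data were seen.

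For Camk2b, PGC-1α went with another leading form in both pairs. Camk2b-201 (503 residues) was at 0.0345 FPKM in Ctrl against 3.12 in PGC-1α without OGD, and 0 in control against 3.14 in PGC-1α cells with OGD. Camk2b-208 (529 residues), with the exons printed above, was at 2.20, 0, 0.797 and 0.0887 FPKM, and Camk2b-205 (589 residues) at 2.02, 0.810, 2.19 and 0.767. Camk2b-201 held 55.4% and 70.6% of the gene in the PGC-1α libraries, and at most 0.624% in the controls. It has 0 exonic bases and 0 junctions of its own in the annotation, so its level rests on how the fragments of shared exons were divided, at gene levels of 3.37 to 5.64 FPKM.

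Among the Camk2g transcripts, Camk2g-202 (518 residues) was at 5.89 FPKM in Ctrl and 0.0217 in PGC-1α, and after OGD at 7.40 in control and 4.84 in PGC-1α cells, so the PGC-1α library alone was near 0. Its 69-base exon is also held by 3 other deposited transcripts, and all that hold it summed to 8.26, 5.17, 9.39 and 8.23 FPKM. Camk2g-202 has 0 exonic bases and 0 junctions of its own in the annotation, so its level rests on how shared fragments were divided. Camk2g-203 (495 residues) was level, at 4.48, 4.59, 4.52 and 3.89 FPKM. Camk2g-201, with the exon like that of Camk2d-205, was at 0.277 and 0.477 FPKM in Ctrl and Ctrl+OGD and at 1.77 and 1.61 in PGC-1α and PGC-1α+OGD. Camk2g-212 also holds this exon, and the deposited transcripts with it summed to 0.819 and 0.491 FPKM in Ctrl and Ctrl+OGD. In PGC-1α and PGC-1α+OGD they summed to 1.77 and 1.80.

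**Figure D2:**
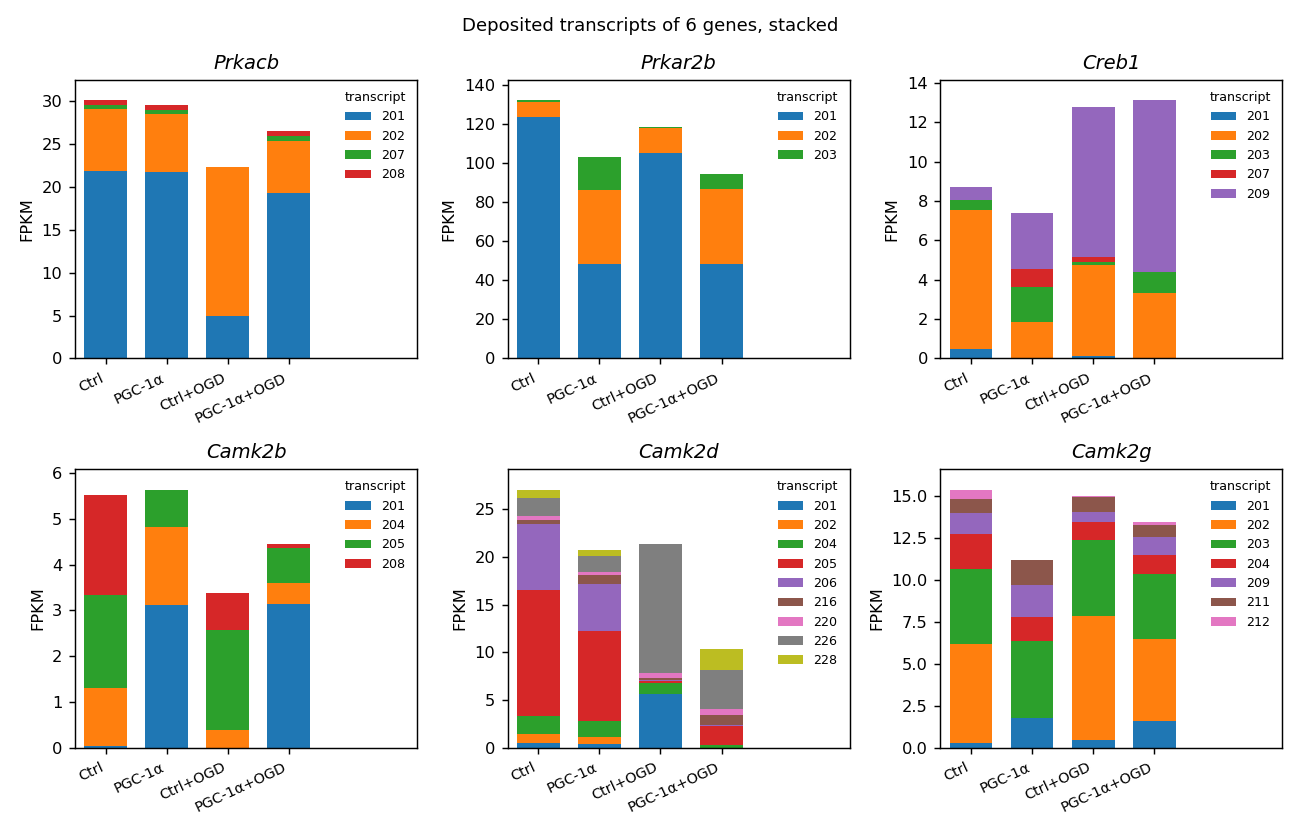
Deposited transcripts of 6 genes, stacked (FPKM, linear axes from 0, 1 bar per library), where colours stand for transcripts numbered as in GENCODE M21. Prkacb-202 is the larger piece only in Ctrl+OGD, Prkar2b-201 is smaller in both PGC-1α libraries (48.4 and 48.6 FPKM) than in the controls (124 and 105), and Camk2d-205 is largest without OGD and Camk2d-226 with OGD.

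Counted over the 10 genes, few passed the fold. For PGC-1α against Ctrl, 0 were higher and 0 lower, where 4.91% of all genes were higher and 5.63% lower, and their log2 fold changes ran from -0.43 to 0.44. For PGC-1α+OGD against Ctrl+OGD, Crtc2 was higher (background 3.08%) and Camk2d lower (background 3.82%). For Ctrl+OGD against Ctrl, 0 were higher and 0 lower, with backgrounds of 6.2% and 7.71%. For PGC-1α+OGD against PGC-1α, Creb1 and Crtc2 were higher (background 3.82%) and Camk2d lower (background 5.22%). The median log2 fold change of the 10 genes was -0.12, 0.02, -0.08 and -0.13 in these comparisons, beside -0.03, -0.01, -0.02 and 0.00 for all genes. With 10 genes, counts of 0 to 3 are small numbers, and nothing particular to these genes is read from them.

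**Figure D3:**
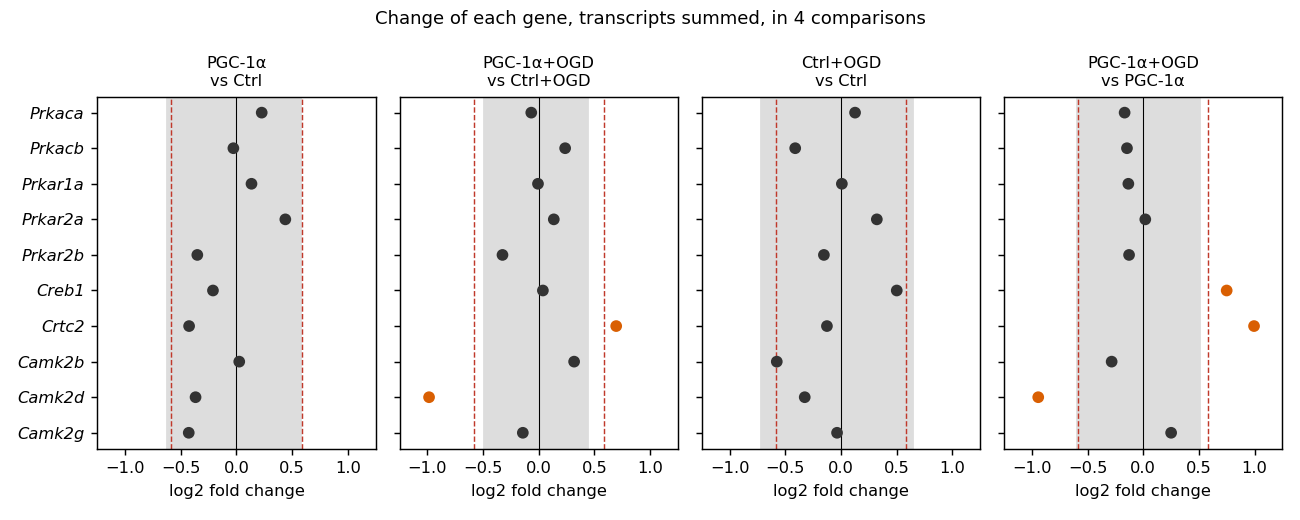
Log2 fold change of each gene (points, transcripts summed) in the 4 comparisons, with dashed lines at 1.5-fold and a grey band from the 5th to the 95th percentile of all 10604 genes. Orange points passed 1.5-fold: 0 genes for PGC-1α against Ctrl, Crtc2 and Camk2d with OGD, 0 genes for Ctrl+OGD against Ctrl, and Creb1, Crtc2 and Camk2d for PGC-1α+OGD against PGC-1α.

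Single transcripts passed the fold more often than genes did. Of 28 transcripts of these genes whose mean reached 1 FPKM, 11 were past 1.5-fold in either direction for PGC-1α against Ctrl, where 25.4% of all transcripts were. For PGC-1α+OGD against Ctrl+OGD there were 14 (background 22.3%), for Ctrl+OGD against Ctrl 10 (background 28.1%) and for PGC-1α+OGD against PGC-1α 9 (background 25.3%). Transcripts of 1 gene share fragments and are not independent of each other.

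Of the 9 genes with more than 1 transcript, the leading transcript differed in 3 for PGC-1α against Ctrl (Creb1, Camk2b and Camk2g), where it differed in 19.5% of all such genes. It differed in 2 for PGC-1α+OGD against Ctrl+OGD (Prkacb and Camk2b, background 18.7%), in 4 for Ctrl+OGD against Ctrl (Prkacb, Creb1, Camk2b and Camk2d, background 19.9%) and in 2 for PGC-1α+OGD against PGC-1α (Camk2d and Camk2g, background 20.8%). A transcript's share moved by at least 20 percentage points the same way in both comparisons of PGC-1α with control in Prkar2b and Camk2b, against 5.5% of 6405 genes. In both comparisons of OGD with no OGD it did so in Creb1 and Camk2d, against 6.64% of those genes. These measures of transcript use were chosen after the data were seen.

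The cyclic AMP response element was looked for by its letters in RefSeq promoters (GRCm38.p6, 250 bases before to 50 after each start site, both strands). Of the 10 genes 8 had a promoter there, 17 promoters in all, and Crtc2 and Camk2g had none in that table. The full palindrome TGACGTCA was in 1 of the 8, Prkar1a, and in 2.03% of 27025 genes. It stood 49 bases before a start site, in the promoter at chr11:109650699-109650998 (plus strand), and capitals mark it:
Prkar1a: cgaggcgcatTGACGTCAgcagccgaac

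The shorter TGACG, which the palindrome contains, was in the promoters of 4 of the 8 genes (Prkaca, Prkacb, Prkar1a and Prkar2a) and in 23.0% of all genes. Of single promoters, 20.8% held TGACG and 1.79% the palindrome. The 8 genes had 17 promoters, more per gene than the 32851 promoters of 27025 genes, so the shares by gene are not alike. A match of letters is not a site of binding.

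The wider pathway was read from 9 lists of 123 genes written from general knowledge, of which 80 were in the table and 74 were compared. Leaving out the 10 genes above, 64 remained. Of these, 3 were higher and 7 lower for PGC-1α against Ctrl, 0 higher and 3 lower for PGC-1α+OGD against Ctrl+OGD, 2 higher and 10 lower for Ctrl+OGD against Ctrl, and 3 higher and 8 lower for PGC-1α+OGD against PGC-1α. The backgrounds are those given for the 10 genes.

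Upstream of PKA, some genes passed the fold for PGC-1α against Ctrl, where 10.5% of all genes did. The share was 33.3% of 6 genes of cyclic AMP synthesis, 16.7% of 6 phosphodiesterases and 16.7% of 12 anchoring proteins, which are small numbers. Adcy6, an adenylyl cyclase that calcium inhibits, was at 10.3 FPKM in Ctrl, 4.81 in PGC-1α and, with OGD, 6.09 in control and 9.43 in PGC-1α cells, with a log2 fold change of -0.96 without OGD and 0.56 with it. Adcy7, another adenylyl cyclase, was at 3.45, 5.70, 4.58 and 3.74 FPKM, and its log2 fold change was 0.59 without OGD. Of the phosphodiesterases, which break down cyclic AMP, 1 of 6 passed the fold for PGC-1α against Ctrl: Pde4b, at 1.49, 3.08, 0.617 and 0.676 FPKM. Of 12 anchoring proteins compared, Akap13 was higher for PGC-1α against Ctrl (6.31, 11.9, 7.15 and 7.95 FPKM, log2 fold change 0.82) and Akap7 lower (38.8, 25.5, 27.0 and 23.9 FPKM, -0.59). With OGD, 0 genes of these lists passed the fold in the comparison of PGC-1α with control, where 6.9% of all genes did. Adcy6 fell just short of it there, in the opposite direction. With so few genes, these counts do not separate the comparisons with and without OGD. Of the 2 other cyclic AMP effectors compared, 0 passed the fold in any comparison. Of all genes, 10.5% and 6.9% passed it with PGC-1α without and with OGD, and 13.9% and 9.03% with OGD in control and PGC-1α cells.

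Of 14 genes of the CREB family with its coactivators and regulators, 2 were lower for PGC-1α against Ctrl, where 5.63% of all genes were. Atf1, a close relative of CREB, was at 60.6 FPKM in Ctrl against 37.1 in PGC-1α without OGD, and 67.5 in control against 66.1 in PGC-1α cells with OGD, with PGC-1α as the low library (log2 fold change -0.69). Crem, which also binds the cyclic AMP response element, was at 1.60, 0.686, 1.27 and 1.74 FPKM (-0.63). A list of 14 well known CREB target genes includes Pde4b and also Crem and Sik1, which are counted in the CREB family list too. Of these targets 1 was higher and 4 lower for PGC-1α against Ctrl (median log2 fold change -0.26). For PGC-1α+OGD against Ctrl+OGD 0 were higher and 2 lower (median 0.03), for Ctrl+OGD against Ctrl 1 higher and 7 lower (median -0.45), and for PGC-1α+OGD against PGC-1α 1 higher and 5 lower (median -0.35). In that order, 35.7%, 14.3%, 57.1% and 42.9% of these targets passed the fold, beside 10.5%, 6.9%, 13.9% and 9.03% of all genes. The targets are few, and Crem, Gem and Pde4b were at low levels. Whether the list differs from other genes was not tested.

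Egr1, an immediate early gene, was at 27.9 FPKM in Ctrl and at 5.49 in PGC-1α, with 4.14 and 3.45 in control and PGC-1α cells after OGD, so Ctrl was the library apart (log2 fold change -2.16 with PGC-1α). Junb, an AP-1 subunit, was at 35.5, 22.6, 14.4 and 12.9 FPKM, and Per2, a clock gene, at 13.3, 8.11, 8.09 and 8.85, again with Ctrl as the highest library. With OGD, Nr4a2, a nuclear receptor, was at 5.12 FPKM in control and 2.02 in PGC-1α cells (log2 fold change -1.02), and Gem, a small GTPase, at 1.44 and 0.320 (-0.89).

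Among CaMKII genes and inhibitors, Camk2n2, which encodes an inhibitor protein of CaMKII, was at 9.33 FPKM in Ctrl and 7.57 in PGC-1α, and after OGD at 6.69 in control and 3.93 in PGC-1α cells. Its log2 fold change with PGC-1α was -0.27 without and -0.64 with OGD. Its order of libraries placed PGC-1α+OGD lowest, as for Camk2d. Camk2a was at 7.31, 4.95, 4.40 and 4.59 FPKM. Of the 5 genes of this list compared, Camk2d among them, 0%, 40%, 20% and 40% passed the fold. The order is PGC-1α against Ctrl, PGC-1α+OGD against Ctrl+OGD, Ctrl+OGD against Ctrl and PGC-1α+OGD against PGC-1α. The shares of all genes were 10.5%, 6.9%, 13.9% and 9.03%, and 5 genes are few. Of 12 genes for calmodulin, calcineurin and other calmodulin-dependent kinases, 0 passed the fold in any of the 4 comparisons, beside the same shares of all genes. The same held for the 6 PKA subunits and inhibitors compared, of which only Pkig is not among the 10 genes. These lists are also short, and whether they differ from other genes was not tested.

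**Figure D4:**
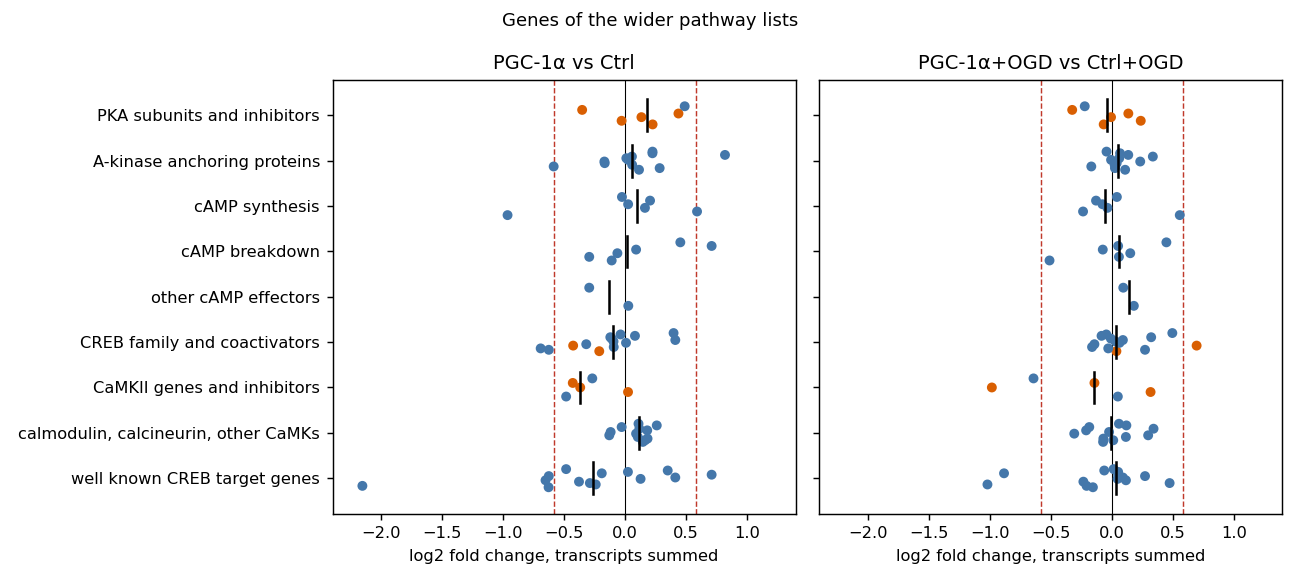
Log2 fold change with PGC-1α, without OGD (left) and with OGD (right), of the genes of 9 lists (points; the 10 genes named at the start in orange), with the list medians as black bars and 1.5-fold as dashed lines. Egr1 is the point at -2.16 on the left, and the CREB target median was -0.26 on the left and 0.03 on the right.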

How the data were processed

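RNA-Seq of 4 libraries of HT-22 cells, 1 per group, was analysed, and groups were taken from the sample labels. Per the submitters' notes and methods, stranded poly(A) libraries were sequenced from both ends and the authors aligned the reads to GRCm38 with HISAT2 2.1.0. The quantification program is not given in the sources used here. The deposited values, 1 per transcript, name no unit and were taken as FPKM, since no value is below 0 and the columns sum to different totals, from 331892 to 353381, under that of TPM. The highest value of each deposited transcript was at least 0.500 FPKM. Depth is unknown, because no step of whole reads could be recovered (at most 35.4% of low values lay within 0.1 of whole steps, over 4994 genes with 1 transcript), and no counting error is given.

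Identifiers without version were matched to GENCODE M21 (25822 of 25889 transcripts, 99.7%), transcripts were summed per gene, and log2(FPKM + 1) was compared for genes whose mean over the 4 libraries reached 1 FPKM. No overlap of the members' exons with exons of another gene was found in that annotation; reads shared with paralogs could not be separated. The 10 members, the lists and the markers were chosen with earlier results of these data known. Text names cover the members, their transcripts that led in a library or differed by 2-fold or more between the libraries of a PGC-1α comparison, and, per list and PGC-1α comparison, at most 4 genes past 1.5-fold. Camk2a is named for the CaMKII sum. The scripts ran in Python 3.11.15 with pandas 2.3.3, numpy 2.4.6 and, for plots, matplotlib 3.10.9, and were tested on simulated data. Alternatives covered pseudocounts, filters, scaling, the fold and the value of a gene.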

Additional observations from a re-analysis of the deposited data

Results flagged for a closer look

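Crtc2 was flagged because, alone of the 10 genes, it passed 1.5-fold in 1 comparison and had the opposite sign in the like comparison. The log2 fold change with PGC-1α was -0.43 without OGD and 0.70 with OGD, from 7.02 and 4.97 FPKM in Ctrl and PGC-1α and 6.34 and 10.9 FPKM in Ctrl+OGD and PGC-1α+OGD. Seen along the other factor, the log2 fold change with OGD was -0.13 in control cells and 0.99 in PGC-1α cells. These statements rest on the same 4 values, and with 1 library per group the difference was not tested. Opposite signs with PGC-1α were also seen outside the 10 genes, such as in Adcy6 (-0.96 and 0.56) and Crem (-0.63 and 0.27). The share of all genes that meet the rule was not computed.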

How the results depend on the processing

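Of 476 log2 fold changes of single genes under the alternatives, 449 stayed on their side of 1.5-fold and, where past it, in their direction. Of the others, 20 came to pass it in their own direction, and 5 kept their value and missed only the stricter fold of 2. Another 1, uncalled as reported, passed it in the other direction (Creb1 for PGC-1α against Ctrl, 1.23 by its highest transcript). The remaining 1, Camk2d, reversed and is given below. Many of the 449 could not have changed. The filters, the fold of 2 and the limit to protein-coding transcripts left the value of every gene compared as it was. Crtc2, with 1 transcript, was also fixed under the highest-transcript, length-weighted and complete-coding settings. The 449 therefore do not measure how robust the values are. The median over the 10 genes ran from -0.15 to 0.03 for PGC-1α against Ctrl and from 0.02 to 0.12 for PGC-1α+OGD against Ctrl+OGD. It ran from -0.16 to 0.04 for Ctrl+OGD against Ctrl and from -0.17 to 0.01 for PGC-1α+OGD against PGC-1α. The sign of the median thus depended on the setting in every comparison, for PGC-1α+OGD against Ctrl+OGD only where a mean of 5 FPKM left 9 genes. A fold of 2 left 0 genes for PGC-1α+OGD against Ctrl+OGD (2 at 1.5-fold) and 0 for PGC-1α+OGD against PGC-1α (3 at 1.5-fold). For PGC-1α against Ctrl, with 0 genes past the fold as summed, there were 4 by the highest transcript (Prkar2b, Creb1, Camk2b and Camk2g), 2 by the length-weighted sum (Creb1 and Camk2g) and 1 with complete coding sequences only (Camk2g). For PGC-1α+OGD against Ctrl+OGD the highest transcript gave 5, and turned Camk2d to 1.29, since that transcript, Camk2d-205, was lower in Ctrl+OGD than in PGC-1α+OGD. For Ctrl+OGD against Ctrl, 0 became 1 (Camk2b) with pseudocounts of 0.1 and 0.01, equal totals, upper quartile scaling and the length-weighted sum, 1 (Camk2d) with complete coding sequences only, and 3 by the highest transcript. Both the highest transcript and complete coding sequences only gave 4 for PGC-1α+OGD against PGC-1α, with Camk2g higher as the added gene. When a mean of 5 FPKM was required, Camk2b was not compared, and the medians of the 9 genes left were -0.21 for PGC-1α against Ctrl and -0.01 for PGC-1α+OGD against Ctrl+OGD. No scaling moved the median of all genes by 0.1 or more. No paired analysis was possible because each group has 1 library, and for the same reason no replicate could be left out. The unknown number of reads limits the low transcripts most, and transcripts that share most of their exons rest on how the fragments were divided.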
